A study of Mus musculus with 2 samples.

Results

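The imprinted microRNA cluster in an intron of Sfmbt2 was described in the adrenal gland of adult male mice. Its members were all miRNA genes of GENCODE M21 that lie on the plus strand of chromosome 2 inside Sfmbt2 (GRCm38, mm10). This rule took 119 of the 2202 miRNA genes in the count tables, by position alone. Of the 119, 71 carry a Mir symbol of the Mir297, Mir466, Mir467 or Mir669 family, and 48 carry only a number with the prefix Gm. MicroRNA sequencing of RNA below 30 nucleotides gave 2 libraries, labelled biological replicates 1 and 2 of 1 group. The mice were 8 to 10 months old, of the strain 5xFAD/CAST, named after a transgenic Alzheimer's disease model and a wild-derived inbred strain. Whether these animals carried the transgene is not in the labels. Both libraries name the same donor record, so the spread between them may be partly technical. The design holds 1 group and therefore no contrast between conditions.

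MicroRNAs are cut from hairpin precursors, and their seed, bases 2 to 8, directs them to messenger RNAs. Sfmbt2 encodes a Polycomb group protein and is expressed mainly from the paternal allele in extraembryonic tissue. The hairpins in its intron are a rodent cluster of tandem copies, known for its high expression in the placenta. The deposited counts do not separate maternal from paternal alleles.

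All 119 hairpins lay in 1 intron of Sfmbt2 (ENSMUSG00000061186.15, chromosome 2, 10370510 to 10595253, plus strand), and 0 touched an exon of the transcripts that hold them. It is intron 10 or 11, depending on the transcript, from 10461473 to 10523944. The first hairpin, Gm22072, starts at 10465287 and the last, Mir669h, ends at 10518279, so the cluster spans 52993 bases. No other plus-strand miRNA gene lay close to the limits of the rule. The nearest was Mir511, 3743 kb beyond the cluster, with 109 reads in replicate 1 and 17 in replicate 2.

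The families are built from alternating repeats of T with G and of C with A. The steps TG, GT, CA and AC made up a median of 50% of the dinucleotides of the 119 hairpins, ranging from 32.5% to 66.7%, against a median of 26.6% in the 2083 other hairpins. Their median GC content was 37.3%, against 51.7% in the others. The RefSeq miRNA set used here (GRCm38.p6) held 0 entries under the gene symbols of the 119 members. It held 8 mature miRNAs of the same families encoded elsewhere in the genome. The 4 printed here, with the seed in capitals, show this repeat character and how far single seeds recur in the cluster.
mmu-miR-467g: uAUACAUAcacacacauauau
mmu-miR-466i-3p: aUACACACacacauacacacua
mmu-miR-669n: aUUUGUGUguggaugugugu
mmu-miR-467h: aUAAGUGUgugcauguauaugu

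The 7 bases of the miR-467g seed occurred somewhere in 78 of the 119 cluster hairpins (65.5%), and in 3.12% of the other hairpins. Those of miR-466i-3p occurred in 60 (50.4%, against 5.76%) and those of miR-669n in 10 (8.40%, against 2.26%). The miR-467h seed occurred in 1, Mir467e (0.840%, against 0.624%). A match lies anywhere on the plus strand of a hairpin and does not show that a mature miRNA with that seed is made. The whole mature sequences of these relatives were in 0 of the 119 hairpins. The 10 genes with these family names outside the cluster had 0 reads in both libraries.

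Among the sense reads assigned to miRNA genes, the cluster was a minor part. Reads that fit several places in the genome are outside these shares, and how many came from the cluster was not tested. The cluster held 3919 of 6783227 sense miRNA reads in replicate 1, a share of 0.0578% (Wilson 95% interval 0.0560 to 0.0596). It held 1476 of 3084602 in replicate 2, a share of 0.0479% (0.0455 to 0.0504). The mean was 0.0528% ± 0.00702 (SD, n = 2), and the intervals of the 2 libraries did not overlap. These intervals and the floors given further on cover counting error only.

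Few members had reads. At least 1 sense read in either library was assigned to 10 of the 119 (8.40%), where the background over all miRNA genes was 31.9%. Levels are given as CPM, the sense reads of a gene scaled to 1000000 sense miRNA reads per library. A gene was called detected above 2 CPM in both libraries. This held for 6 of the 119 members (5.04%), against 15.2% of all miRNA genes. Among the 71 members with a Mir symbol, 10 had reads (14.1%) and 6 were detected (8.45%). The other 109 members had 0 reads in both libraries. Reads that fit several places in the genome were assigned to no gene in the deposited tables, so counts of genes with near-identical copies can be too low. Reads placed on a similar copy instead of their own would raise a count, and these were not tested for.

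The Mir467 genes held most of the reads. Mir467d (ENSMUSG00000077021.2, 10507630 to 10507714) was the most abundant member, with 1750 reads or 258 CPM in replicate 1 and 611 reads or 198 CPM in replicate 2. Its mean was 228 ± 42.4 CPM (SD, n = 2), rank 129 of the 2202 genes. Mir467e (ENSMUSG00000076948.2, 10505721 to 10505807) had 1202 reads or 177 CPM and 427 reads or 138 CPM, a mean of 158 ± 27.4 CPM. Mir467d was above Mir467e in both libraries, by 1.46-fold and 1.43-fold, but the gap in replicate 2 was smaller than the change of Mir467d between the replicates. Their order, taken by CPM gaps, is therefore not separated from the replicate spread, although the ratio was nearly equal in both libraries. Mir467c (ENSMUSG00000077049.2, 10473931 to 10474027) stood lower, with 249 reads or 36.7 CPM and 75 reads or 24.3 CPM.

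The other 11 of the 14 Mir467 genes, Mir467a-1 to Mir467a-10 and Mir467b, had 0 reads. Of the 14, 10 had no 20-base window of their own, all of them Mir467a copies. The starts of the Mir467a and Mir467b genes lay a median of 2454.5 bases apart (2413 to 4880 over 10 gaps). The median marks the tandem unit of the cluster. The gap of 4880 bases, from Mir467a-9 to Mir467a-10, holds Gm25022 (start 10500822), whose hairpin is identical to Mir467a-8. The hairpins of Mir467d and Mir467e were 92.0% identical, and that of Mir467c was 84.5% identical to Mir467e and 83.5% to Mir467d.

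Among the Mir669 genes, 5 of 29 had reads. Mir669c (ENSMUSG00000076118.1, 10509296 to 10509404) had 386 reads or 56.9 CPM in replicate 1 and 209 reads or 67.8 CPM in replicate 2. Mir669o (ENSMUSG00000077086.1, 10514300 to 10514395) had 246 reads or 36.3 CPM and 108 reads or 35.0 CPM, the closest match between the libraries among the 6 detected members. Mir669l (ENSMUSG00000076959.1, 10468971 to 10469068) had 52 reads or 7.67 CPM and 38 reads or 12.3 CPM. These 3 were detected, while Mir669h and Mir669e were not.

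Mir669h (10518155 to 10518279), the last member by position, had 25 reads or 3.69 CPM in replicate 1 and 4 reads or 1.30 CPM in replicate 2. It passed the detection limit in replicate 1 only. Mir669e had 4 reads in replicate 1 and 2 in replicate 2. The single Mir466 gene with reads, Mir466n, gave the same counts, 4 and 2. The single Mir297 gene with reads, Mir297a-2, had 1 read in replicate 1 and 0 in replicate 2. These last 3 stood near the floor of 3 reads, equal to 0.442 CPM in the first library and 0.973 CPM in the second. The other 22 of the 23 Mir466 genes and the other 4 of the 5 Mir297 genes had 0 reads, although 14 and 5 of these families' genes had unique windows. The 48 numbered Gm genes, 44 of them nearest in sequence to a Mir669 hairpin among the named members, had 0 reads.

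**Figure D1:**
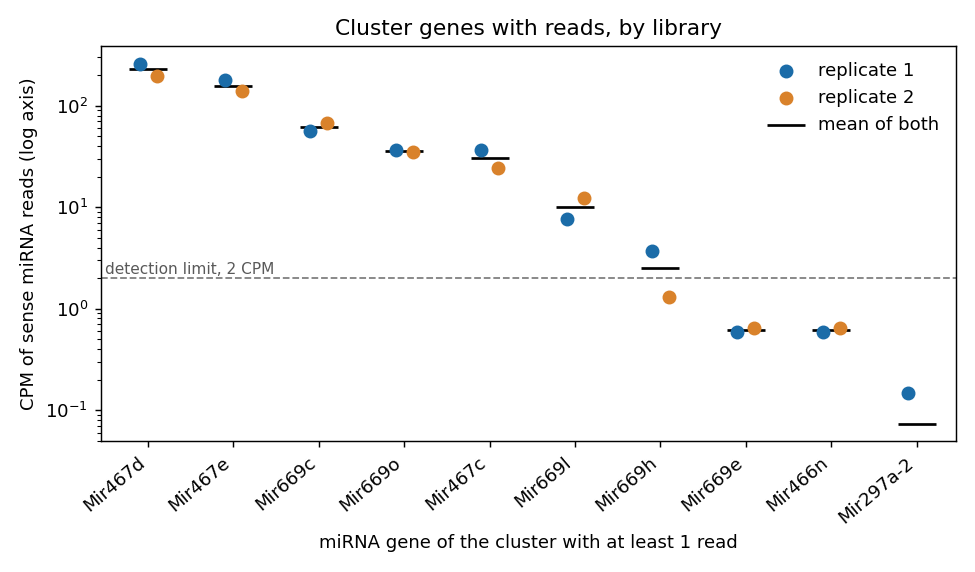
CPM of sense miRNA reads on a log axis for the 10 cluster genes with at least 1 read, in replicates 1 and 2 (points) with their mean (bar). Mir467d and Mir467e stood at 138 CPM or more in both libraries, 6 genes lay above the limit of 2 CPM in both, and Mir297a-2 has no point for replicate 2, where it had 0 reads.

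Reads were concentrated in few members. Mir467d and Mir467e together held 75.3% of the cluster's reads in replicate 1 and 70.3% in replicate 2 (mean 72.8% ± 3.54, SD, n = 2). With Mir669c, Mir669o and Mir467c added, the 5 leading members held 97.8% and 96.9%. Mir467d was 3.66-fold above Mir669c by mean CPM, 6.40-fold above Mir669o, 7.47-fold above Mir467c and 22.8-fold above Mir669l. The ratio to Mir669c was 4.53 in replicate 1 and 2.92 in replicate 2, and that to Mir669l 33.7 and 16.1, so ratios between families varied with the library.

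An order of 2 members was accepted only with the same sign in both libraries. Each member also had to change less between replicates, in CPM, than either gap. Of the 45 pairs among the 10 members with reads, 37 met this rule, and of the 15 pairs among the 6 detected members, 12 did. The 37 include Mir669e and Mir466n above Mir297a-2, which rest on 4 and 2 reads against 1 and 0, near the floor. Mir467d and Mir467e each stood above the 8 others with reads, and Mir669c above the 7 below it. The neighbours Mir669o and Mir467c were not ordered, nor were Mir467c and Mir669l. The rule covers the spread between replicates and orders reads, not molecules, since ligation and amplification can favour some sequences.

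The reads lay at the 2 ends of the cluster. From Gm22072 to Mir467c, 4 of 17 members had reads, together 306 in replicate 1 and 115 in replicate 2. From Mir467e to Mir669h, 6 of 30 members had reads, together 3613 and 1361. These ends held 7.81% and 92.2% of the cluster's reads in replicate 1, and 7.79% and 92.2% in replicate 2, so the split was nearly equal in both libraries. Between them, 72 members from Mir466b-1 (start 10474219) to Gm26398 (end 10504773) spanned 30555 bases with 0 reads in either library.

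The stretch without reads was the most repetitive. Its limits were drawn from the reads themselves, as the longest run of members with 0 reads, so the comparison with the ends is descriptive. Each hairpin was cut into overlapping windows of 20 bases, and a window was called unique when it occurred in no other annotated miRNA hairpin on either strand. Of the 72 members of that stretch, 52 had 0 unique windows and 46 had a hairpin identical over its whole length to that of another member. At the 2 ends, 0 of 17 and 2 of 30 members had 0 unique windows. The median longest run shared with another hairpin was 87 bases in the middle stretch, against 51 and 45 bases at the ends. For these 52 members a count of 0 sets no upper limit on expression, because reads common to several copies were counted for none.

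**Figure D2:**
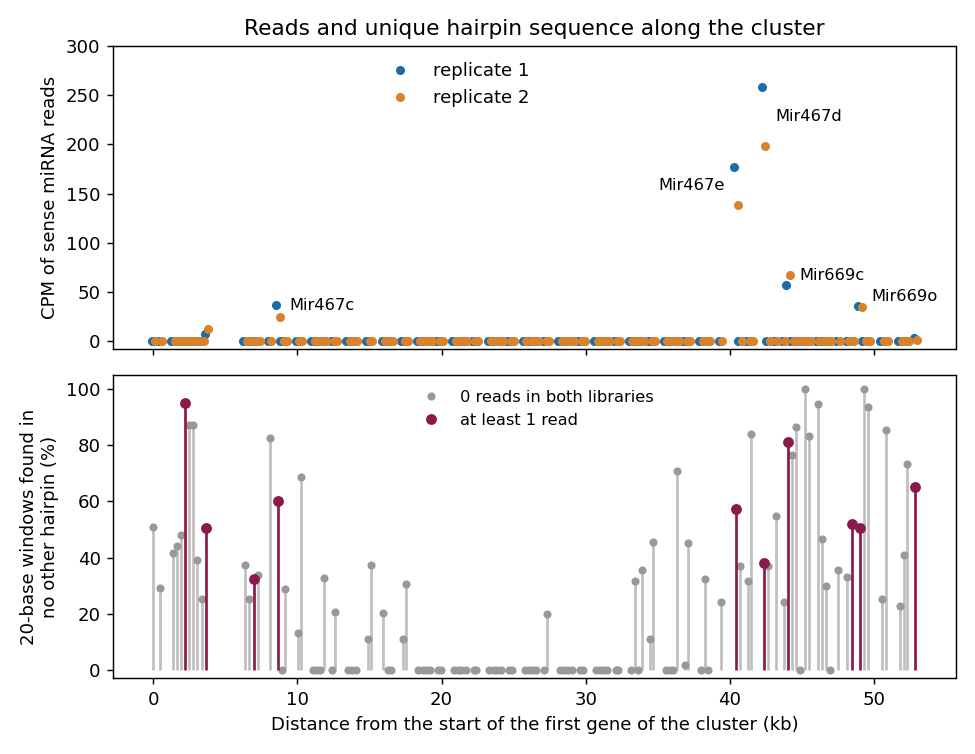
Upper panel, CPM of each of the 119 genes in replicates 1 and 2 against the distance in kb from the start of the first gene. Lower panel, the share of 20-base windows found in no other miRNA hairpin, with the 10 genes that had reads in dark red and the 109 without in grey; reads lie at both ends, and 52 of the 72 genes between them have no unique window.

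Over the whole cluster, 117 of 119 hairpins shared a run of 20 bases with another miRNA hairpin, and 47 were identical to another member, in groups of up to 9. The median longest shared run was 81 bases (16 to 127), in hairpins of 73 to 127 bases. A median of 19.8% of the windows of a member was unique, while the median of the other 2083 genes was 100%. All 10 members with reads had unique windows, from 32.4% for Mir297a-2 to 95% for Mir669e. Their median was 54.7%, beside 1.85% for the 109 members without reads.

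Unique sequence in the hairpin went with reads across the genome as well as in the cluster. Of the 54 members with 0 unique windows, 0 had reads, beside 3 of 247 other miRNA genes (1.21%). Of the 40 members with above 0% but under 50% unique windows, 2 had reads (5.00%), beside 8 of 313 (2.56%). Of the 23 members from 50% to under 100%, 8 had reads (34.8%), beside 104 of 410 (25.4%). Both members at 100% had 0 reads, where 578 of 1113 other genes had some (51.9%). These are counts of genes, which are not independent, and no test was made of them.

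**Figure D3:**
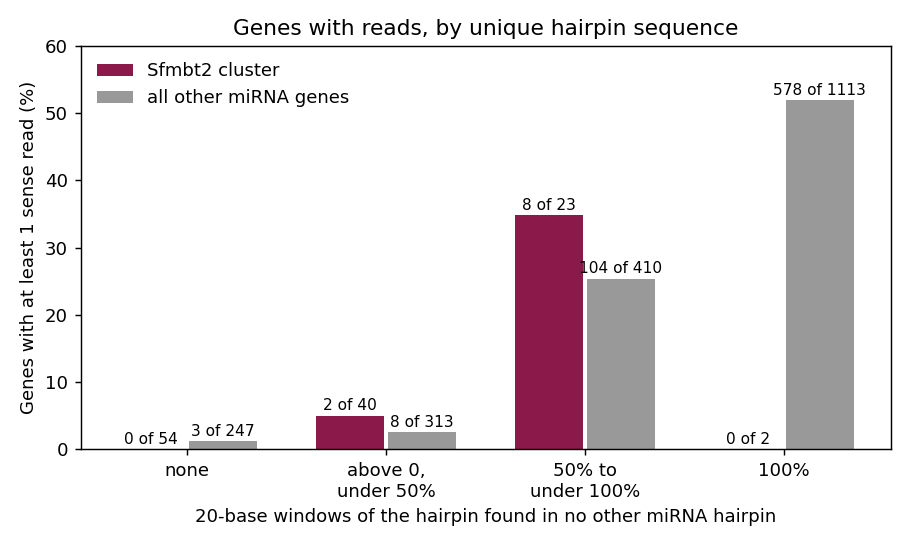
Percent of genes with at least 1 sense read in either library (bars, with counts above) by the share of 20-base windows found in no other miRNA hairpin, for the 119 cluster genes and the 2083 other miRNA genes. The share with reads was 0 of 54 for cluster genes with no unique window and 8 of 23 for those from 50% to under 100%.

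Mir467d departed from this order. Only 37.9% of its windows were unique, and it shared 20 bases with 14 hairpins, 13 of them Mir467 genes and the other Gm25022, whose hairpin is identical to Mir467a-8. Of the 654 miRNA genes in the tables with under 50% unique windows, it was the 1 detected. The deposited counts are per hairpin, so they do not say which arm of Mir467d the reads came from. How many mismatches were allowed is not given in the sources used here, and reads of Mir467a copies that were placed on Mir467d were not tested for.

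Conversely, some members with their own sequence had no reads. Of the 25 members with at least 50% unique windows, 17 had 0 reads. Many other miRNA genes of these classes had none either. From 50% to under 100%, 104 of 410 other genes had reads (25.4%), beside 8 of 23 members (34.8%). At 100%, 578 of 1113 other genes had reads (51.9%), beside 0 of 2 members. Mir466g (10514595 to 10514674) and Gm22239 (10510461 to 10510563) shared no run of 20 bases with any other miRNA hairpin, and the longest shared runs were 16 and 17 bases. Gm23542 and Mir466h had 94.8% and 93.5% unique windows. These 4 were singled out after their values had been seen. For Mir466g and Gm22239, 0 reads allows up to 0.442 CPM in replicate 1 and 0.973 CPM in replicate 2, unless copies outside the annotated hairpins made their reads multimapping, which was not tested. The limit also takes the sequence of these mice to match the reference assembly, which was not tested either.

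The split of reads between families differed between the libraries by more than counting error. Mir467 genes held 81.7% of the cluster's reads in replicate 1 (Wilson 95% interval 80.4 to 82.9) and 75.4% in replicate 2 (73.1 to 77.5). Mir669 genes held 18.2% (17.0 to 19.4) and 24.5% (22.3 to 26.7). Mir467c, Mir467d and Mir467e were each lower in replicate 2, by CPM ratios of 0.662 (exact 95% counting interval 0.505 to 0.861), 0.768 (0.699 to 0.842) and 0.781 (0.698 to 0.873). Mir669c stood at a ratio of 1.19 (1.00 to 1.41) and Mir669l at 1.61 (1.03 to 2.49), while Mir669o was level at 0.965 and Mir669h stood at 0.352 (0.0890 to 1.02) on 25 and 4 reads. Members of 1 family share sequence, so they are not independent measurements.

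**Figure D4:**
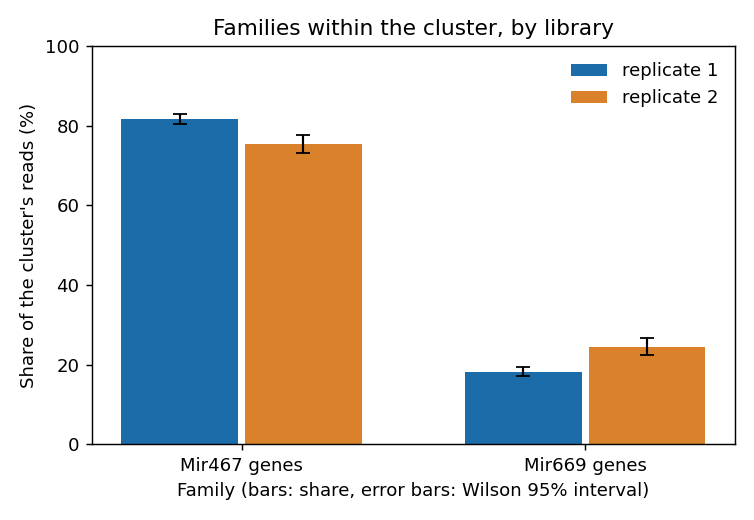
Share of the cluster's reads held by Mir467 and Mir669 genes in replicates 1 and 2, with Wilson 95% intervals for counting error. Mir467 genes hold 81.7% and 75.4% and Mir669 genes 18.2% and 24.5%, and the intervals of the libraries do not overlap. The shares of the families mirror each other, so they are 1 result.

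Differences between the libraries were called where Fisher's exact test, two-sided and on read counts, gave a Benjamini-Hochberg adjusted p under 0.05 over all 280 genes of at least 10 CPM by mean, and the log2(CPM + 1) difference was at least 1. Of the 5 members tested, 0 were called, beside 10.7% of the 280 genes. With any size of difference, 3 of the 5 had an adjusted p under 0.05 and 4 an unadjusted p under 0.05, while 69.3% of the 280 genes passed the adjusted limit. The log2 difference of replicate 2 minus replicate 1 was −0.38 for Mir467d (Fisher's exact test, adjusted p = 2.68e-08), −0.35 for Mir467e (1.87e-05) and −0.57 for Mir467c (0.00265). It was 0.25 for Mir669c (adjusted p = 0.0657) and −0.05 for Mir669o (0.855) by the same exact test. The median was −0.35 over the 5 members and 0.01 over the 280 genes, of which 138 were lower in replicate 2. The median absolute log2 difference was 0.35 over the 5 members and 0.28 over the 280 genes. The test compares the reads of 2 libraries and not conditions, and it takes amplified reads as independent molecules, so its p-values cover counting error only. Mir669l and Mir669h were below 10 CPM by mean and were not tested here.

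The share of genes detected was 5.04% in the Sfmbt2 cluster and 8.45% among its members with a Mir symbol. It was higher in both clusters set beside it. In the imprinted Dlk1-Dio3 region of chromosome 12, 49 of 59 genes were detected (83.1%) and held 8.75% ± 1.05 of sense miRNA reads. Only 1 of these 59 had no unique window, against 54 of the 119 Sfmbt2 members. In the mir-290 cluster of chromosome 7, known from embryonic stem cells, 4 of 9 genes were detected (44.4%), and the cluster held 0.00715% ± 0.00319. The highest gene there was Mir293 at 24.3 CPM by mean, below the means of the 5 leading members of the Sfmbt2 cluster. In replicate 1, Mir294 stood at 37.3 CPM, above Mir467c and Mir669o, but in replicate 2 it stood at 11.0 CPM, below both. The regions differ in repeated sequence, and its part in the difference was not tested.

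The tissue label was checked against marker miRNAs. The neuroendocrine list of Mir375 and the mir-7 genes summed to 63615 and 87243 CPM, of which Mir375 alone gave 58717 and 82443. The endothelial Mir126a stood at 92610 and 52519 CPM. No marker of the adrenal cortex was listed. The liver marker Mir122 was at 257 and 57.7 CPM and the gonad marker Mir202 at 19.0 and 22.7 CPM. The 4 striated muscle genes summed to 3.69 and 3.57 CPM, all from Mir206, with Mir1a-1, Mir133a-1 and Mir208a at 0 reads. Reads that fit several places were counted for no gene, so 0 reads does not show that a marker is absent. The 6 listed genes of the mir-290 cluster, markers of pluripotent cells, summed to 94.1 and 48.6 CPM. Bulk tissue does not tell fewer cells of a type from less RNA per cell.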

How the data were processed

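For each library the authors deposited 1 table of raw read counts per miRNA gene, on assembly mm10 with GENCODE M21, per the accompanying text. The 3 columns hold counts for both strands, the sense strand and the opposite strand, as read from the layout and totals. For the aligner, trimming and allowed mismatches, nothing is given in the sources used here. Of 13209343 and 6482170 reads, multimapping reads made up 30.3% and 32.1%. Mapping lines stayed out of the totals.

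Sense counts were scaled to CPM. Hairpins came from GENCODE M21 transcripts. Hairpins overlapping on the genome counted as 1 locus, and copies outside annotated hairpins were not searched. Identity was from global alignment (Biopython 1.88), over the longer hairpin. Fisher's exact test used scipy 1.17.1. Alternative scalings used edgeR 4.0.16 (TMM) and DESeq2 1.42.0 (size factors). The Fisher step was tested on simulated data.

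The rule named all members with reads, the first and last by position, and relatives elsewhere of at least 2 CPM, of which there were 0. Other members without reads, and the 4 relatives whose sequences are printed, were named after their values had been seen. The members and lists were chosen with earlier results of these data known.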

Additional observations from a re-analysis of the deposited data

Results flagged for a closer look

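Multimapping reads form a signal outside the counts used here. They numbered 4001595 in replicate 1 and 2084009 in replicate 2, which is 1021 and 1412 times the reads assigned to the cluster. Their genes of origin are not in the tables, so how many belong to the 54 members without a unique window was not tested. Opposite-strand reads in the 119 members numbered 0 in both libraries.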

How the results depend on the processing

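The count of 6 detected members ranged from 5 to 9 under the alternatives tried, namely other limits, scalings, the column for both strands and each library alone. The cluster's share was 0.0262% of all reads in the tables, a different denominator. Leaving out a replicate gave shares from 0.0479% to 0.0578%. Restricted to genes with a Mir symbol, an alternative chosen after seeing the data, 70 of 71 shared a run of 20 bases and 32 had no unique window, since fewer genes entered. Windows of 18 and 22 bases left 54 members without a unique window, 0 of them with reads. Calls between the libraries stayed at 0 members under the 7 alternatives. The column for both strands raised the CPM of every member with reads, because its total is smaller. Mir467d, for example, stood at 257 CPM there, Mir669o at 40.03 CPM, and Mir669e and Mir466n at 0.694 CPM. Counts of mature arms by number of copies were not run. No paired analysis was possible because there was 1 group. The 3-read floor and the 2 libraries limit statements on members under 2 CPM.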
